A study of Rattus norvegicus with 12 samples.

Results

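Messenger RNA levels of 9 genes of the methionine cycle and of the supply of methyl groups to it (Mat1a, Mat2a, Ahcy, Bhmt, Bhmt2, Gnmt, Pemt, Mtr and Shmt1) were read in the livers of rats that drank ethanol by choice and of rats that drank water. Members were chosen by gene name, and the main transcript of a gene was that of its listed transcripts whose mean RPKM was highest. RPKM is the number of reads assigned to a transcript, scaled to its length and to the mapped reads of the library. By name, 7 of the 9 genes were found among the 24355 gene names and 34391 transcripts of the table. Bhmt2 was read from the transcript named BHMT2_RAT, a match made after the table was seen, and no transcript was matched to Mat2a, which is not analysed here. The account therefore rests on 8 genes, of which 7 were above 0 in all 12 livers.

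The animals were female rats of the inbred alcohol-preferring strain iP10a, all with free access to food and water. For 23 weeks the 6 EtOH animals could also drink from bottles holding 10, 20 and 30% ethanol (v/v), whereas the 6 control animals had water. Livers were taken at 38 weeks of age, except that EtOH animal 6 was 39 weeks old. A single library of poly(A) RNA was sequenced per animal. The ethanol drunk by each animal is not used here, so that the EtOH group stands for access and not for a dose, and all animals belong to 1 inbred strain.

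In the methionine cycle, methionine is converted to S-adenosylmethionine (SAM), the methyl donor of most methylation reactions. Use of the methyl group leaves S-adenosylhomocysteine, which is split to homocysteine. Homocysteine either regains a methyl group, from betaine or from methyl folate, or leaves the cycle for cysteine synthesis by transsulfuration. Liver is the main organ for this chemistry, and its methionine cycle is a classical subject of work on alcohol and fatty liver.

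The promoters of Gnmt, Bhmt and Mat1a, the 3 members whose unadjusted p was below 0.05 in the comparison of the groups, are shown as reference sequence, since these are the genes on which the results turn. They come from the RefSeq annotation of GRCr8 and cover 250 bases before and 50 bases after the annotated start, 5′ to 3′ on the strand of the gene. That window is chr9:21752032-21752331 (plus strand) for Gnmt, chr2:26614380-26614679 (minus strand) for Bhmt and chr16:17016918-17017217 (plus strand) for Mat1a. Capitals mark any match, on either strand, to the letters TATAAA for a TATA box, to CCAAT for the box of that name, to GGGCGG for a GC box, to GTAAACA for a forkhead motif or to CACGTG for an E-box.
Gnmt: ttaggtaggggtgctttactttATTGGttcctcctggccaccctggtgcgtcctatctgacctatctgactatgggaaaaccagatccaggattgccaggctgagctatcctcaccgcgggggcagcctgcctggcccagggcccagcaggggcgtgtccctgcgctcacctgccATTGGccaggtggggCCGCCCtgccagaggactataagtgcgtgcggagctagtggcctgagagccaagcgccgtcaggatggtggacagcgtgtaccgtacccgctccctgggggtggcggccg
Bhmt: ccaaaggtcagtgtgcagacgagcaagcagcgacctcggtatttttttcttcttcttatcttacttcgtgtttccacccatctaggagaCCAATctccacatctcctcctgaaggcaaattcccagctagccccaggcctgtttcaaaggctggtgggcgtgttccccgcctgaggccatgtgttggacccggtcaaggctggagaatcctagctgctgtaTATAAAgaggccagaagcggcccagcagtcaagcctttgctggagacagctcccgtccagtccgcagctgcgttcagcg
Mat1a: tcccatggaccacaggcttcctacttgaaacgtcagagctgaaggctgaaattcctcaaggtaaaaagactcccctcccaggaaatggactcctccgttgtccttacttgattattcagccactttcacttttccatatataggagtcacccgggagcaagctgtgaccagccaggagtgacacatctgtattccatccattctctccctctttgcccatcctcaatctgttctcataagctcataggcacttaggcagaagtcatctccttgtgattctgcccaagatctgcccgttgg

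Gnmt held 2 CCAAT boxes, at -228 and -75 from the start, and a GC box at -60. Bhmt held a TATA box at -29 and a CCAAT box at -161, and Mat1a held none of the 5 motifs. A CCAAT box was found in 37.5% of 33469 rat promoters of this length, a GC box in 33.1%, a TATA box in 14.2%, an E-box in 6.42% and the forkhead motif in 3.78%. Of the 9 members, 8 had a promoter in the table used, and none of the 8 held the forkhead motif.

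For the comparison, log2 of the RPKM plus a pseudocount of 0.5 was quantile normalized over the 12 livers, and EtOH was compared with control by limma over 21718 transcripts above 0 in at least 1 liver. A transcript was called at a Benjamini-Hochberg adjusted p below 0.05. Whole reads behind the RPKM values could be recovered, and summed to between 2610238 and 4318141 per control liver and between 3945593 and 6030028 per EtOH liver. The EtOH libraries were thus deeper (p = 0.011, exact permutation, two-sided). Hepatocyte markers were present in every liver, with a summed RPKM of 84066 to 118675, most of it from Alb.

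Among the 8 members, Gnmt alone was called, and it was higher in EtOH livers. That is 12.5% of the members, against 2.42% of all transcripts tested (1.13% called higher and 1.29% called lower). Where only transcripts that averaged 1 RPKM or more were fitted, 860 of 11086 were called, a larger share, and 1 of 7 members. Mat1a and Bhmt had unadjusted limma p values below 0.05 with higher values in EtOH livers, but were not called. Such a p was found for 3364 of all 21718 transcripts, and for 2693 of the 11086 that averaged 1 RPKM or more. The median log2 fold change of the 8 members was 0.29 against 0.0002 over all transcripts. That median counts Pemt, whose 0.64 was the largest of the 8 and rests on 6 reads. It also counts Ahcy, Bhmt2 and Shmt1, whose signs changed with the scaling. No member had RPKM ranges of the 2 groups that did not overlap, as 3.10% of all transcripts did. Over all transcripts 526 were called, and this number lay between 212 (without EtOH animal 2) and 656 (without control animal 6) when single livers were left out.

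**Figure D1:**
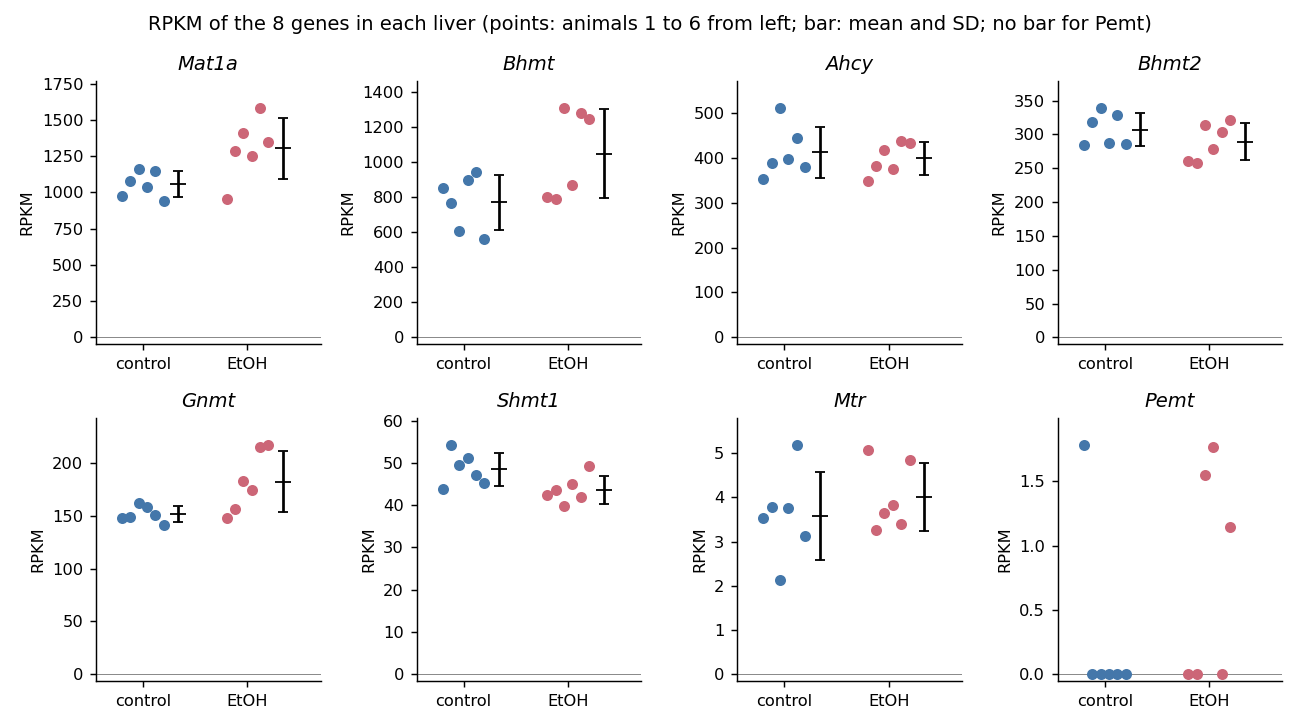
RPKM (vertical axis, linear, each panel on its own scale) of the 8 members in 6 control livers (blue) and 6 EtOH livers (red). Each point is 1 liver, animals 1 to 6 from left to right, and the bar gives the mean and SD (not drawn for Pemt, which has 6 reads in all). For Mat1a 5 of the 6 EtOH points lie above every control point, for Gnmt 4 and for Bhmt 3.

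The members spanned a wide range of levels per length of transcript. Mat1a had the highest RPKM, followed by Bhmt, Ahcy, Bhmt2, Gnmt, Shmt1, Mtr and Pemt, and each neighbouring pair stood in this order in 12 of 12 livers. Mat1a and Bhmt were the only neighbours whose ranges overlapped within each group. By mean RPKM Mat1a ranked at 57, Bhmt at 69, Ahcy at 145 and Bhmt2 at 202 among the 21718 transcripts. Mtr ranked at 6949. The place of Pemt rests on 6 reads of its listed transcript.

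Mat1a encodes the catalytic subunit of the methionine adenosyltransferases of adult liver, which make SAM. Its listed transcript covers chromosome 16, 17559622 to 17563987, in the coordinates of the authors' table. The sources used here do not name the genome build of those coordinates. Mat1a RPKM was 943 to 1163 in control livers (median 1058) and 951 to 1578 in EtOH livers (median 1314). The EtOH livers were above all controls in 5 of 6 animals, whereas EtOH animal 1, at 951, was near the lowest control. The mean was 1057 ± 89.9 RPKM in control and 1303 ± 208 RPKM in EtOH animals (SD, n = 6 each), a ratio of 1.23, and this difference was not called (log2 fold change 0.35, SE 0.11, limma adjusted p = 0.128). Without EtOH animal 1 Mat1a was called (log2 fold change 0.43, adjusted p = 0.0437). On the RPKM as deposited, the two-sided exact permutation test of this single gene gave p = 0.0281, unadjusted. Since bulk liver was measured, a change in the number of cells of a type and a change in RNA per cell cannot be told apart. This holds here and in every result that follows.

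Gnmt encodes glycine N-methyltransferase, which uses SAM to methylate glycine to sarcosine and is abundant in hepatocytes. The listed transcript covers chromosome 9, 10127092 to 10130444, and its promoter with 2 CCAAT boxes is printed above. Gnmt RPKM was 141 to 162 in control livers (median 149.6) and 148 to 217 in EtOH livers (median 179). Control livers lay close together (151 ± 7.44, SD, n = 6, a coefficient of variation of 4.91%), and EtOH livers were spread more widely (182 ± 29.0, SD, n = 6, 15.9%). EtOH animals 3 to 6, at 183, 174, 215 and 217 RPKM, were above all controls, and EtOH animals 1 and 2, at 148 and 157, were within the control range.

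After quantile normalization the groups separated, with log2 values of 7.10 to 7.28 in control livers and 7.34 to 7.81 in EtOH livers. The log2 fold change of Gnmt was 0.41 (SE 0.07, 95% interval 0.25 to 0.57, limma adjusted p = 0.0169), higher than the control mean in 6 of 6 EtOH livers on this scale and in 5 of 6 in RPKM. The call remained with each of the 12 livers left out (adjusted p 0.00733 to 0.0416). It depended on the scaling between livers: the log2 fold change was 0.25 without normalization (adjusted p = 0.164), 0.27 with limma voom on recovered reads (adjusted p = 0.144) and 0.35 with median scaling (adjusted p = 0.0513), and none of these was called. On the RPKM as deposited the two-sided exact permutation test gave p = 0.0303, unadjusted.

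**Figure D2:**
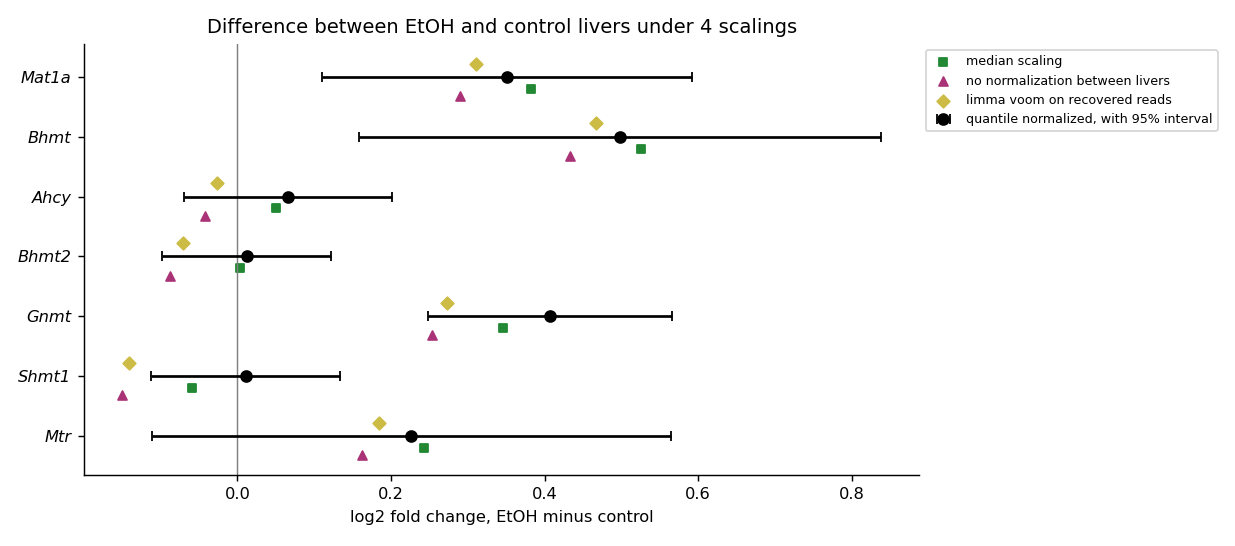
Log2 fold change, EtOH minus control (horizontal axis), of the 7 members read in every liver (vertical axis). Black circles with bars are the quantile-normalized limma values with 95% intervals, and squares, triangles and diamonds are the values under median scaling, without normalization and from limma voom on recovered reads. Mat1a, Bhmt, Gnmt and Mtr lie above 0 under all 4 scalings, whereas Ahcy, Bhmt2 and Shmt1 change sign between them.

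Ahcy encodes S-adenosylhomocysteine hydrolase, the enzyme that removes the product of SAM-dependent methylation. The Ahcy transcript (chromosome 3, 145544834 to 145560052) stood at 353 to 510 RPKM in control livers (median 394) and 348 to 438 in EtOH livers (median 399). The ranges overlapped almost fully, with 5 of 6 EtOH livers inside the control range. The log2 fold change was 0.07 (SE 0.06, 95% interval -0.07 to 0.20, limma adjusted p = 0.649), and its sign changed without normalization (-0.04).

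Homocysteine is remethylated by the products of Bhmt, Bhmt2 and Mtr, which take the methyl group from different donors. Bhmt encodes betaine-homocysteine methyltransferase, whose donor is betaine, and its transcript covers chromosome 2, 23923653 to 23943320. Bhmt RPKM was 561 to 945 in control livers (median 811) and 791 to 1306 in EtOH livers (median 1059). The EtOH livers formed a higher and a lower set. Animals 3, 5 and 6, at 1306, 1280 and 1247 RPKM, were above all controls, and animals 1, 2 and 4, at 799, 791 and 871, were within the control range. In control livers, animals 3 and 6 were lowest, at 608 and 561 RPKM. The mean was 772 ± 157 RPKM in controls and 1049 ± 253 in EtOH animals (SD, n = 6 each), a ratio of 1.36. Bhmt had the largest log2 fold change of the 7 members read in every liver, 0.50, but with an SE of 0.16 it was not called (95% interval 0.16 to 0.84, limma adjusted p = 0.125), and it was not called in any of the 12 fits with a liver left out. The two-sided exact permutation test on RPKM gave p = 0.0606.

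Bhmt2 encodes a relative of Bhmt that methylates homocysteine from S-methylmethionine. Its transcript lies on the same chromosome, 23958070 to 23976415, and starts 14749 bases past the end of the Bhmt transcript. Bhmt2 RPKM was 284 to 338 in control livers (median 302) and 258 to 321 in EtOH livers (median 291). Of the EtOH livers, 3 were below all controls and 3 within the control range. The log2 fold change was 0.01 (SE 0.05, 95% interval -0.10 to 0.12, limma adjusted p = 0.933), and without normalization it was -0.09. Bhmt and Bhmt2 are similar in sequence, and the sources used here do not say how reads that fit both were assigned.

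Scaling each liver by a single factor leaves the ratio of Bhmt to Bhmt2 unchanged, whereas quantile normalization can change it. The ratio was taken within each liver on the RPKM as deposited. It was 1.80 to 3.13 in control livers (median 2.65) and 3.06 to 4.22 in EtOH livers (median 3.51), with 4 EtOH livers above all controls and 5 controls below all EtOH livers. Its mean was 2.53 ± 0.56 in control and 3.59 ± 0.56 in EtOH animals (SD over 6 livers each). This ratio was added after the values had been seen and was not tested. The next listed gene beyond Bhmt2 is Dmgdh, from 23976563 to 24052761, which encodes the dehydrogenase of dimethylglycine, the product that betaine leaves when BHMT takes its methyl group.

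Mtr encodes methionine synthase, the cobalamin-dependent enzyme that takes the methyl group from folate. The main transcript (chromosome 17, 68782708 to 68867084) stood at 2.12 to 5.18 RPKM in control livers (median 3.65) and 3.26 to 5.07 in EtOH livers (median 3.73), and all 6 EtOH livers were within the control range. These values rest on 32 to 109 reads per liver, so that counting error alone was 9.6 to 17.7%. The log2 fold change was 0.23 (SE 0.16, 95% interval -0.11 to 0.56, limma adjusted p = 0.544). A second listed Mtr transcript was at 0 in all 12 livers.

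Bhmt exceeded Mtr by a factor of 222 ± 41.4 in control livers and 270 ± 83.2 in EtOH livers (SD over 6 livers each). This factor ranged from 157 in EtOH animal 1 to 377 in EtOH animal 5. The 2 groups overlapped, with 3 EtOH livers within the control range, 2 above it and 1 below it.

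Shmt1 encodes the cytosolic serine hydroxymethyltransferase, which loads the carbon of serine onto folate. Its main transcript (chromosome 10, 46936605 to 46964779) stood at 43.8 to 54.2 RPKM in control livers (median 48.2) and 39.7 to 49.2 in EtOH livers (median 43.0). Of the 6 EtOH livers 4 were below all controls. After quantile normalization the difference was 0.01 on the log2 scale (SE 0.06, 95% interval -0.11 to 0.13, limma adjusted p = 0.946). In the RPKM as deposited the EtOH mean was lower, 43.6 ± 3.27 against 48.5 ± 3.87 (SD over 6 livers each; unadjusted p = 0.039, exact permutation), and without normalization the log2 fold change was -0.15 (limma adjusted p = 0.261). The direction of Shmt1 was therefore set by the scaling. A second Shmt1 transcript had 1 read in 1 liver.

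Pemt encodes phosphatidylethanolamine N-methyltransferase, which makes phosphatidylcholine in the liver with SAM as donor. The transcript listed for it covers 2772 bases of chromosome 10 (46300118 to 46302889) and had 6 reads in 4 of the 12 livers, at most 2 per liver. Of these reads 1 came from a control liver and 5 from EtOH livers, a ratio of 3.65 per total reads with a 95% interval of 0.408 to 172, which covers counting error only. A difference in Pemt was not detectable from 6 reads (limma adjusted p = 0.639). In control animal 1, 1 read made 1.78 RPKM for Pemt, whereas 46 reads made 3.54 RPKM for Mtr. The length counted for Pemt was therefore much shorter. The listed transcript may be only a part of the gene, so the level of Pemt in these livers cannot be read from it.

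**Figure D3:**
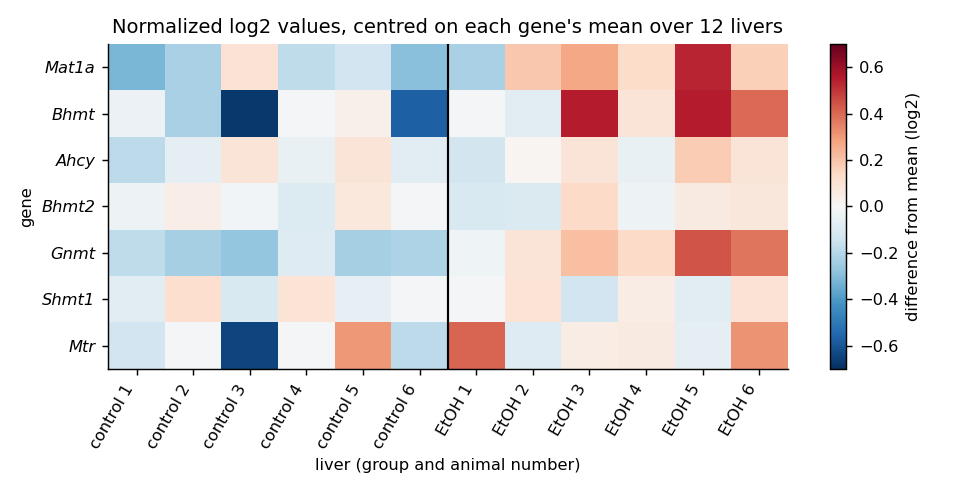
Quantile-normalized log2 values of 7 members (vertical axis), each centred on its mean over the 12 livers (horizontal axis, controls left of the line and EtOH right of it), with red above and blue below the mean. Gnmt is below its mean in every control liver and near or above it in the EtOH livers, and Bhmt is lowest in control animals 3 and 6 and highest in EtOH animals 3 and 5.

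The livers did not rank alike for all members. EtOH animal 5 had the highest RPKM of the EtOH group for Mat1a (1578) and Ahcy (438), EtOH animal 6 for Gnmt (217), Bhmt2 (321) and Shmt1 (49.2), EtOH animal 3 for Bhmt (1306) and EtOH animal 1 for Mtr (5.07). EtOH animal 1 had the lowest EtOH value for Mat1a, Gnmt and Ahcy. Among controls, animal 3 was highest for Mat1a, Gnmt, Ahcy and Bhmt2 in RPKM and lowest for Mtr.

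The profiles most like that of Gnmt over the 12 livers were taken as the smallest root mean square difference between centred log2 values, among 11085 other transcripts that averaged 1 RPKM or more. The nearest were Dmgdh (0.0752), RT1-S3, a class I histocompatibility gene (0.0819), and Cdkn1b, which encodes a cyclin-dependent kinase inhibitor (0.0939). The median difference over all those transcripts was 0.365. The measure used the same livers as the comparison of the groups, and so it is a description.

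The other genes around the cycle were read from 7 lists with 74 genes, of which 64 could be tested, 8 were not matched to a transcript and 2 were listed at 0. Of the 64, 5 were called, 3 higher and 2 lower in EtOH livers, which is 7.81% against 2.42% of all transcripts tested, and the median log2 fold change was -0.04. Among transcripts that averaged 1 RPKM or more, fitted alone, 860 of 11086 were called, a larger share than 2.42%. Most genes of the lists lie above that level, so 7.81% is not read as a trait of the lists. The number called among the 64 depended on the scaling. It was 10 (2 higher and 8 lower) without normalization, and 4 each with median scaling and with limma voom. Over all 21718 transcripts 774 were called without normalization, 648 of them lower. Median scaling called 531 of the 21718 and limma voom 587. The 5 genes called after quantile normalization, each by its main transcript, were Dmgdh, Folr2 and Cd320, which rose, and Cbs and Shmt2, which fell. Each of these directions held without normalization, with median scaling and with limma voom on recovered reads.

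**Figure D4:**
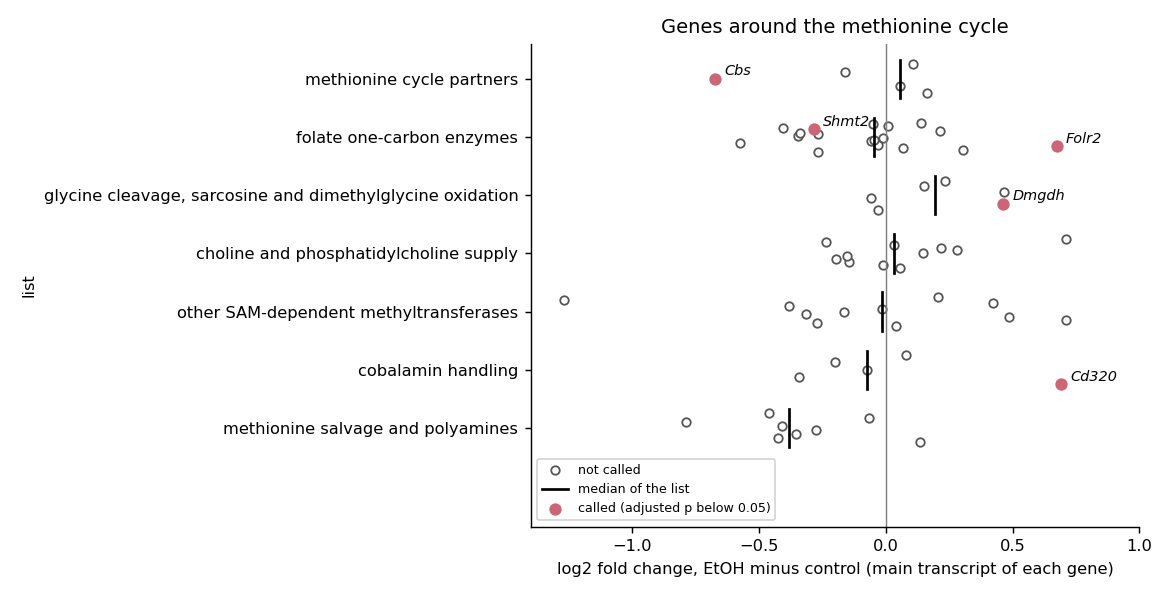
Log2 fold change, EtOH minus control (horizontal axis), of the main transcript of each tested gene in 7 lists around the methionine cycle (vertical axis). Filled points are called genes, open points are not called and the vertical bars are list medians. Cbs and Shmt2 lie below 0, Dmgdh, Folr2 and Cd320 above it, and the list of methionine salvage and polyamines has the lowest median, -0.38.

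Among the partners of the cycle, 1 of 5 tested genes was called. Cbs encodes cystathionine beta-synthase, which commits homocysteine to transsulfuration. Its main transcript was at 57.7 to 96.9 RPKM in control livers (median 71.5) and 28.6 to 45.9 in EtOH livers (median 42.6), without overlap. The mean fell from 73.4 ± 13.9 to 40.7 ± 6.13 (SD, n = 6 each; log2 fold change -0.67, SE 0.13, limma adjusted p = 0.0246). The call was lost without control animal 2 (adjusted p = 0.0541). Cbs has 3 listed transcripts, and the other two stood at 26.5 and 3.23 RPKM in controls and 28.4 and 4.96 in EtOH livers, neither of them called. Summed over the 3 transcripts, Cbs was 103 ± 16.4 RPKM in control and 74.1 ± 6.66 in EtOH animals (SD over 6 livers each), again without overlap and not tested.

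Of the folate enzymes, carriers and receptors, 18 were tested, 1 was called higher and 1 lower. Without normalization 4 of the 18 were called, the same 2 and, named after their values were seen, the purine synthesis genes Atic and Gart, both lower. In that setting 774 of all 21718 transcripts were called, 648 of them lower. Shmt2, the mitochondrial counterpart of Shmt1, was at 72.8 to 104.6 RPKM in control livers (median 84.0) and 59.2 to 66.2 in EtOH livers (median 62.9). All 6 EtOH livers were below all controls, the log2 fold change was -0.28 (SE 0.05, limma adjusted p = 0.0134), and the call remained with each of the 12 livers left out. Folr2, a folate receptor known from macrophages, was at 2.16 to 3.42 RPKM in control livers (median 2.39) and 3.19 to 4.72 in EtOH livers (median 4.27). Its reads were few, 54 over all control livers and 124 over all EtOH livers. The groups overlapped in RPKM by 1 liver of each, and the log2 fold change was 0.67 (SE 0.14, limma adjusted p = 0.0257). This call was kept in 5 of the 12 fits with a liver left out, and was lost without control animal 2 or 5 or EtOH animal 1, 2, 3, 4 or 6 (adjusted p 0.0511 to 0.0655), and limma voom on recovered reads did not call Folr2 (adjusted p = 0.0715). Among markers of Kupffer cells, the macrophages of the liver, 3 of 6 tested were called higher (Vsig4, Clec4f and Cd163) and the other 3 were not called, with a positive log2 fold change in 6 of 6. Over all transcripts 1.13% were called higher. Among those that averaged 1 RPKM or more, fitted alone, it was 420 of 11086. With a liver left out, Vsig4 was called in 12 of 12 fits, Clec4f in 7 and Cd163 in 2, and limma voom called 1 of the 6. The summed RPKM of the 6 was 108 to 169 in control and 148 to 189 in EtOH livers. Their part in the value of Folr2 was not tested.

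Of the genes for glycine cleavage and for the oxidation of sarcosine and dimethylglycine, 1 of 6 tested was called. Dmgdh was at 115 to 130.5 RPKM in control livers (median 121) and 129 to 183 in EtOH livers (median 156). Of the EtOH livers, 5 were above all controls, and EtOH animal 1 was within the control range. The log2 fold change was 0.46 (SE 0.06, limma adjusted p = 0.00297), the call remained with each of the 12 livers left out, and it also passed without normalization (0.32, adjusted p = 0.0386). Its p was the smallest among the 64 tested genes of the 7 lists.

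Of the 5 tested genes of cobalamin handling, Cd320, the receptor for cobalamin bound to transcobalamin, was called. Cd320 was at 5.53 to 11.7 RPKM in control livers (median 6.85) and 9.03 to 13.1 in EtOH livers (median 10.8). Control animal 3, at 11.7, lay within the EtOH range and the other 5 controls lay below it. The log2 fold change was 0.69 (SE 0.16, limma adjusted p = 0.0489). That call was kept only without control animal 3 (adjusted p = 0.0118) or control animal 6 (adjusted p = 0.0498), and was lost when any of the other 10 livers was left out. Cd320 was also not called without normalization (adjusted p = 0.0861), with median scaling (adjusted p = 0.0513) or with limma voom (adjusted p = 0.0827).

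No gene was called in the other 3 lists after quantile normalization, whereas without normalization 1 of 11 genes of choline supply (Chkb) and 2 of 8 of methionine salvage (Amd1 and Mri1) were called lower. Chkb and Mri1 are named after their values were seen. Without normalization 774 of all 21718 transcripts were called, 648 of them lower. For the counts at an unadjusted limma p below 0.05 that follow, the number over all transcripts was 3364 of 21718. It was 2693 of 11086 for those that averaged 1 RPKM or more. For choline and phosphatidylcholine supply 0 of 11 tested genes were called by limma and 0 by limma voom, with 5 at an unadjusted limma p below 0.05, and the smallest p belonged to Etnk1, an ethanolamine kinase (11.0 and 12.3 RPKM, log2 fold change 0.28, adjusted p = 0.108). For the other SAM-dependent methyltransferases the count was 0 of 11, also by limma voom, with 5 at an unadjusted p below 0.05. Dnmt3a, a DNA methyltransferase, had the smallest p there (1.60 ± 0.34 against 2.41 ± 0.26 RPKM, SD, n = 6 each; log2 fold change 0.48, limma adjusted p = 0.102), with all 6 EtOH livers above all controls in RPKM, and it was called by the pooled test on square-root values (adjusted p = 0.0485).

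For methionine salvage and polyamines 0 of 8 genes were called by limma or limma voom, and 4 had an unadjusted limma p below 0.05. Such a p was found for 2693 of the 11086 transcripts that averaged 1 RPKM or more. The median log2 fold change of this list was -0.38, with 7 of 8 genes below 0, against 0.0002 over all transcripts. Amd1 encodes S-adenosylmethionine decarboxylase, which draws SAM into polyamine synthesis. It had the smallest p, with 39.5 ± 8.02 RPKM in control and 25.8 ± 3.14 in EtOH animals (SD over 6 livers each; log2 fold change -0.43, limma adjusted p = 0.0902). Amd1 was called without control animal 6 (adjusted p = 0.00886) and without normalization (log2 fold change -0.59, adjusted p = 0.0368).

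Of 8 stellate cell markers 1 was called (Col3a1, higher), with a summed RPKM of 24.9 to 34.7 in control and 31.3 to 50.8 in EtOH livers. Of 4 endothelial markers 1 was called (Cdh5, higher), with 27.7 to 35.2 RPKM in control and 32.7 to 45.5 in EtOH livers. Over all transcripts 1.13% were called higher, and 420 of 11086 where only those that averaged 1 RPKM or more were fitted. With a liver left out, Col3a1 was called in 3 of 12 fits (without control animal 1 or 6 or EtOH animal 6) and Cdh5 in 1 of 12 (without control animal 6). Limma voom called none of the stellate or endothelial markers (0 of 8, with 4 at an unadjusted p below 0.05, and 0 of 4, with 2). Over all 21718 transcripts limma voom called 139 higher. Its number at an unadjusted p was not taken over all transcripts, so those counts have no background. Of 4 cholangiocyte markers none was called (0 at an unadjusted limma p below 0.05 and 0 by limma voom), with 4.37 to 8.27 and 3.90 to 7.87 RPKM. Of 7 hepatocyte markers Cps1 was called higher, in 8 of 12 fits with a liver left out (not without control animal 2 or EtOH animal 2, 3 or 5). For Alb and Tf, among the most abundant transcripts, quantile normalization left no difference between the groups. Neither could therefore be called. The summed hepatocyte level was 84066 to 111984 RPKM in control and 92600 to 118675 in EtOH livers. Most of this sum was Alb, with a mean of 70352 RPKM in control and 79085 in EtOH livers. Mean RPKM was lower in EtOH livers for Ttr, Tf and Hnf4a, and higher for Cps1, Serpina1 and Apob. The part of these marker levels in the values of Gnmt, Mat1a and Bhmt was not tested.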

How the data were processed

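Poly(A) RNA of 12 livers, from 6 EtOH and 6 control rats, was sequenced in 101-nucleotide paired-end reads, with all libraries in 1 lane. With CLCbio Genomics Workbench the authors aligned these reads, and they deposited RPKM for each transcript and liver. Genome build and treatment of shared reads are not given in the sources used here. The authors' own columns (fold change, test statistic, p and FDR) were not used. Each column was matched to an animal by its name.

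Values were compared with R 4.3.3 and limma 3.58.1, on log2(RPKM + 0.5) after quantile normalization, with the variance trended on the mean, and Benjamini-Hochberg adjustment over 21718 transcripts. No filter on low values was set beyond a value above 0 in 1 liver. Fold changes on this scale understate the change of low genes. Other steps used Python 3.11.15, pandas 2.3.3 and scipy 1.17.1. Whole reads were recovered from the ratios between RPKM values, and intervals from reads cover counting error only. Single values were tested by two-sided exact permutation over 924 regroupings, whose smallest p is 0.00216. Replicates were separate animals. Alternatives were pseudocounts of 0.1 and 1, no normalization, median scaling, the study's own pooled test on square roots of RPKM after quantile normalization, limma voom on recovered reads, a mean RPKM of at least 1, a fit without the trend, a block for animal number, and each liver left out.

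The members and lists were chosen with earlier results of these data known. The rule for names took every member with all its transcripts, every called gene of a pathway list or, where none was called, the gene with the smallest p, and the 3 profiles nearest to the member with the smallest p. Called marker genes are named beside their lists. A gene absent under its symbol was matched to the symbol followed by _RAT, a rule made after the table was seen, as were the ratio of Bhmt to Bhmt2 and the sum over Cbs transcripts. Lists were described by counts, with no test over a list.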

Additional observations from a re-analysis of the deposited data

Results flagged for a closer look

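EtOH animal 6 had the lowest Cbs level of its group, 28.6 RPKM, far from the next lowest, 41.3 RPKM. Control animal 3 had the highest Cd320 level of its group, 11.7 RPKM, against 7.65 RPKM in the next highest. These 2 values were found among 28 groups of 6 livers examined for a sample far from the others, and chance alone marks about 1 in 20 groups.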

How the results depend on the processing

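Of the members, Mat1a, Bhmt, Mtr and Pemt kept a positive log2 fold change under every alternative in which they were fitted, and Gnmt did so too. The Gnmt call was lost without normalization (0.25), with limma voom on recovered reads (0.27), with median scaling (0.35) and with the replicate block (0.41, adjusted p = 0.0829). Members called were 0 in those 4 settings (4 members without normalization and 3 in each of the others at an unadjusted p below 0.05) and 1 to 2 with livers left out, where Mat1a was added without EtOH animal 1. Mat1a ranged from 0.28 to 0.43 with livers left out and was 0.30 in the permutation test on RPKM. Signs turned without normalization, with limma voom and on RPKM for Ahcy (-0.042, -0.027 and -0.048), Bhmt2 (-0.088, -0.071 and -0.087) and Shmt1 (-0.15, -0.14 and -0.15), and with median scaling for Shmt1 (-0.059). With livers left out, Bhmt2 ranged from -0.014 to 0.036 and Shmt1 from -0.0092 to 0.039. Why the scalings differ was not tested. Without normalization the median log2 fold change was -0.08 over transcripts that averaged 1 RPKM or more, and calls were split as 126 higher and 648 lower, against 245 and 281 with quantile normalization, 194 and 337 with median scaling and 139 and 448 with limma voom.

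Called transcripts numbered 322 with the pooled square-root test, 860 with the minimum of 1 on mean RPKM (11086 tested) and 212 to 656 with livers left out. Fewer than 526 by over 1.5 times were called without control animal 2 or 4 or EtOH animal 2, 3, 4 or 5 (212 to 298). The replicate block gave 113 calls, and Cbs (adjusted p = 0.117), Shmt2 (0.0762) and Folr2 (0.0876) lost theirs, while Dmgdh (0.0474) and Cd320 (0.0328) were called. Animal numbers did not pair the samples: same-numbered animals correlated at -0.067 to 0.032, and 1 of 6 controls correlated best with its own number. Mat2a and its ratio to Mat1a were not run for want of a matched transcript, and Pemt fell below the RPKM filter. Mtr was limited by depth, and Pemt by the few reads and short counted length of its listed transcript.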
